A study of Homo sapiens with 29 samples.

Results

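The subunits of the oxidative phosphorylation complexes were followed in DHL6 and DHL4, 2 human cell lines of diffuse large B-cell lymphoma, which arises from mature B lymphocytes. Genes were taken by symbol: the nuclear genes beginning NDUFA, NDUFB, NDUFC, NDUFS or NDUFV for complex I, SDHA to SDHD for complex II, UQCR genes and CYC1 for complex III, COX4I1 and the COX5 to COX8 genes for complex IV, and ATP5 genes for complex V. Assembly factors and pseudogenes were left out. The rule found 71 measured subunit genes among the 12165 genes on the array: 6 core and 25 accessory genes of complex I, 3 of complex II, 7 of complex III, 13 of complex IV and 17 of complex V. The symbol rule also reached NDUFB2-AS1, an antisense RNA and no subunit, which was left out. ATP5IF1, the inhibitor of complex V, and COX7A2L, which links complexes III and IV, fit the rule. They are counted among the 71 subunit genes, in complexes V and IV. A further 17 genes that fit the rule, among them SDHB and UQCRFS1, were not analysed here.

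Oxidative phosphorylation takes place in the inner mitochondrial membrane. Complexes I and II pass electrons from NADH and succinate to ubiquinone, complex III passes them on to cytochrome c, and complex IV hands them to oxygen. Complexes I, III and IV pump protons meanwhile, and complex V, the ATP synthase, lets the protons flow back while it makes ATP. Core subunits carry the flavin, iron-sulphur, haem and copper centres or the catalytic sites, whereas accessory subunits surround and stabilise them. Some core subunits are encoded by mitochondrial DNA, and these fall outside the symbol rule. A subset of diffuse large B-cell lymphomas is known for high expression of these genes, in contrast to tumours that depend on B-cell receptor signalling.

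Cells grew in RPMI medium and received 1 µM R406, with RNA taken after 2, 6, 24 and 48 h, or DMSO, the solvent alone. R406 inhibits SYK, the tyrosine kinase that relays B-cell receptor signals. Every group held 3 Affymetrix arrays, except DHL4 in DMSO, which has 2 here, so that 29 arrays were used. No time is labelled for the DMSO arrays, and all 4 times of a line were set against the same DMSO arrays, so time in R406 and time in culture cannot be told apart. Whether replicate arrays stem from different cultures is not stated, so the p-values reflect array-to-array spread that may be purely technical. Each line is a single line, and neither genotype nor passage is given.

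Values are log2 expression as deposited. Differences are log2 fold changes of R406 over DMSO ± the standard error (SE) of a limma fit to all 29 arrays. A gene is said to have risen or fallen where the Benjamini-Hochberg adjusted p of that fit, over all 12165 genes, was below 0.05. Replicate arrays correlated at r between 0.978 and 0.996, and no pair held identical values (0 pairs). By their 75th percentile, 4 arrays stood apart, at 4.80 to 4.96 against 5.07 to 5.35 in the others: replicate 3 of DHL4 at 2 h, replicate 3 of DHL6 at 6 h, and replicates 1 and 3 of DHL6 at 48 h. Of 5 measured B-cell markers, 4 lay above a log2 value of 5 in each line, whereas 0 of 8 T-cell and 0 of 4 measured monocyte markers did. Of 7 markers of fibroblasts and endothelium, 0 did in DHL6 and 1 did in DHL4, which was DCN at 7.19. SYK itself rose at 24 h by 2.61 ± 0.17 in DHL6 (adjusted p = 6.51e-11) and by 1.93 ± 0.19 in DHL4 (adjusted p = 1.06e-08). In these bulk samples, fewer cells of a kind and less RNA per cell cannot be told apart.

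Most subunit probe sets were bright. Their mean over the 29 arrays lay above 5 for 69 of the 71 genes, with a median of 9.08 and a highest value of 11.7. The other 2 genes were COX6A2 and COX7A1, the isoforms known from heart and skeletal muscle, which stayed near the floor of the values at means of 3.03 and 2.71. Levels of different genes come from different probes and are not compared as amounts.

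The clearest change was in DHL4 at 24 h. There 38 of the 71 genes fell and 7 rose, and the median over all 71 was -0.31. Of all 12165 genes, 16.5% fell and 13.0% rose, and their median was 0.03. At 2, 6 and 48 h in the same line between 2 and 9 subunit genes changed, and in DHL6 between 0 and 15 did. The array values show the fall without the model. For 39 of the 71 genes, all 3 DHL4 arrays at 24 h lay below the other 11 DHL4 arrays. Over all genes, dim ones included, 9.84% had all 3 arrays below. No such share was counted for bright genes alone.

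A further count kept only the brighter genes. Of the 71 genes, 64 had a mean of at least 7.04, and 1766 genes on the array did. This lower bound does not match the 1766 genes to the subunit genes in brightness. Among the genes it leaves out are ATP5MC1, NDUFS1 and NDUFS7, which fell, with means of 6.52, 6.77 and 6.69. Within these brighter genes, 35 of the 64 subunit genes (54.7%) fell in DHL4 at 24 h, against 47.0% of all such genes, and the medians were -0.33 and -0.27. Of the same genes, 7 subunit genes (10.9%) rose, against 24.9% of all. The share of subunit genes that fell was therefore close to that of all genes above this bound.

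Scaling also bears on the count. After quantile normalization of the deposited values 32 subunit genes fell and 15 rose, with a median of -0.16, and with each array centred on its median 43 fell and 4 rose, with a median of -0.40. Of all genes, 1872 fell and 1749 rose after quantile normalization, and 2232 fell and 1302 rose with centring. More fell than rose under each of these scalings, among the subunit genes and over all genes. The number that fell or rose in DHL4 at 24 h ran from 38 to 48 when single arrays were left out.

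**Figure D1:**
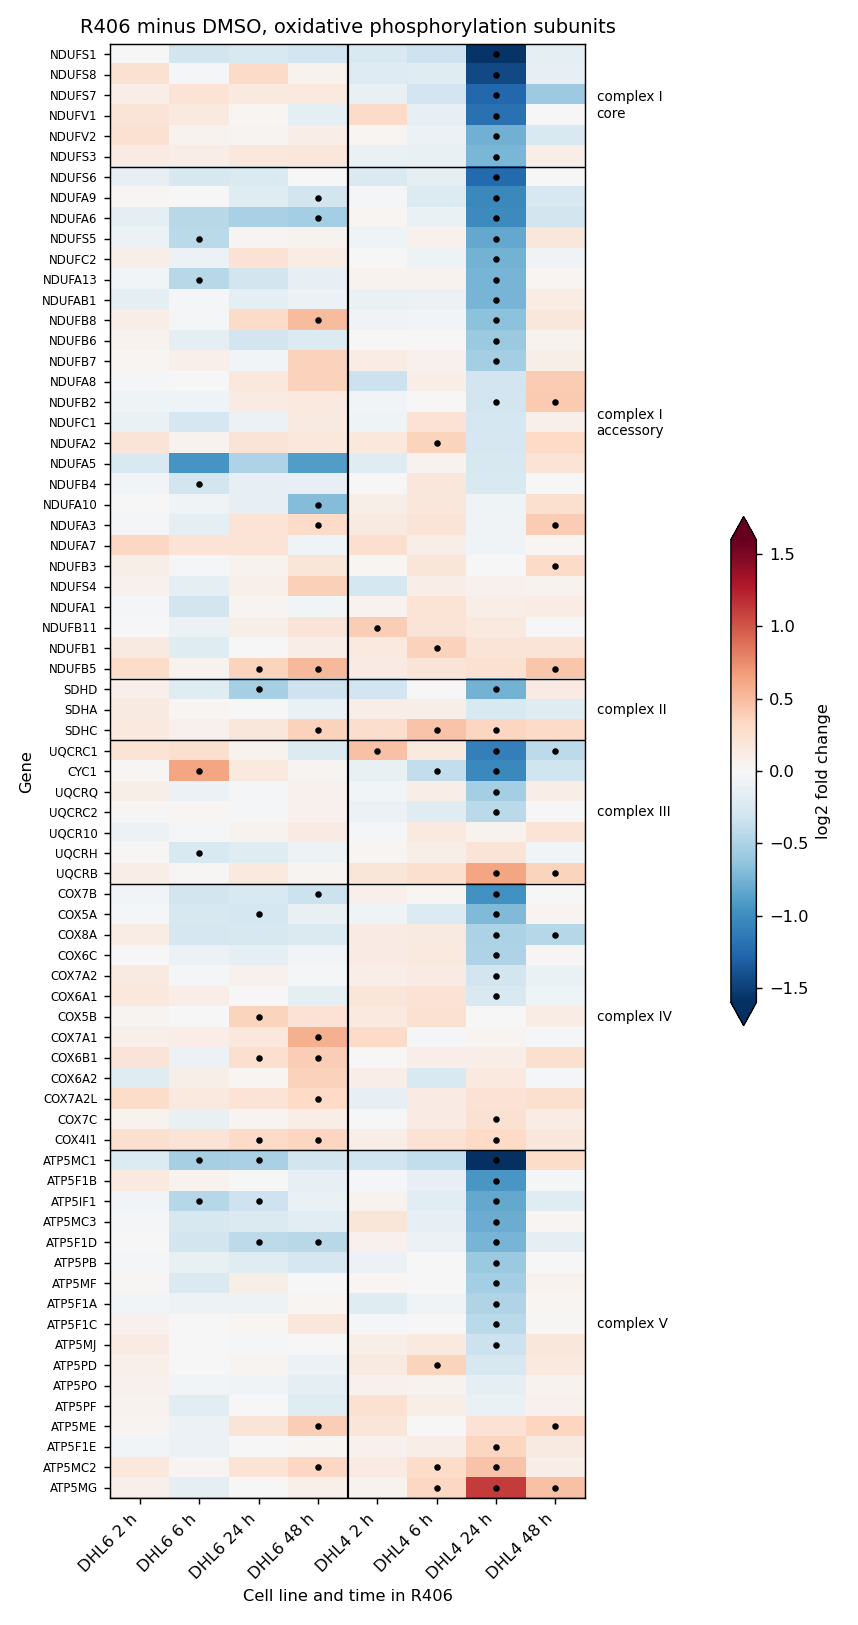
Log2 fold changes of R406 over DMSO for the 71 subunit genes (rows, by complex) at each time in DHL6 (left) and DHL4 (right); colours run from blue (lower in R406) to red (higher in R406), and a dot marks an adjusted p below 0.05. The DHL4 24 h column holds 38 genes that fell, all 6 core genes of complex I among them, and 7 that rose.

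All 6 measured core genes of complex I fell in DHL4 at 24 h, with a median of -1.23, and in each of the 6 the 3 arrays at 24 h lay below the other 11 DHL4 arrays. NDUFS1, the largest iron-sulphur subunit of the arm that receives electrons, had 5.45, 5.72 and 5.19 in the R406 arrays at 24 h, against 7.14 and 6.90 in DMSO. It fell by 1.57 ± 0.13 (adjusted p = 7.59e-10), which is 2.97-fold lower. NDUFS8, which carries iron-sulphur centres close to the ubiquinone site, had 6.04, 5.78 and 5.63 in R406, against 7.32 and 7.21 in DMSO. It fell by 1.45 ± 0.13 (adjusted p = 1.3e-09). The groups of both genes lay more than 1 log2 unit apart without overlap.

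The other core genes followed with smaller changes. NDUFV1, which binds the flavin where NADH is oxidised, had 7.26, 6.63 and 6.68 in R406, against 8.11 and 8.0 in DMSO, a change of -1.20 ± 0.15 (adjusted p = 3.65e-07). NDUFS7, the subunit that hands electrons to ubiquinone, changed by -1.26 ± 0.20 (adjusted p = 1.46e-05). NDUFV2 changed by -0.77 ± 0.10 and NDUFS3 by -0.73 ± 0.09, the smallest falls of the 6 (adjusted p = 5.03e-07 and 6.97e-07).

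Of 25 accessory genes of complex I, 11 (44%) fell and 0 rose by limma, and the median was -0.28. Over all genes 16.5% fell, and 47.0% of the brighter genes did. Changes were negative in 20 of the 25 genes and positive in 5. NDUFS6, a zinc-binding subunit beside the NADH-oxidising arm, had 8.18, 7.83 and 7.86 in R406, against 9.21 and 9.21 in DMSO. It fell by 1.25 ± 0.12 (adjusted p = 3.29e-09). NDUFA6, a small matrix-side subunit, had 7.01, 6.98 and 7.34 in R406, against 8.16 and 8.10 in DMSO, a change of -1.02 ± 0.20 (adjusted p = 0.000204). NDUFA9, which sits near the ubiquinone site, changed by -1.03 ± 0.10 (adjusted p = 4.05e-09). The other 14 genes did not pass the test, and their changes ran up to 0.24 in NDUFB5, a membrane-arm subunit that had 9.84, 9.97 and 9.99 in R406 and 9.75 and 9.63 in DMSO (adjusted p = 0.13).

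In complex II, 1 of 3 genes (33.3%) fell and 1 rose, both membrane anchors, and the rise was called in 1 of 2 probe sets. Of all genes 16.5% fell, and 47.0% of the brighter genes did. SDHD had 6.68, 6.77 and 6.61 in DHL4 at 24 h, against 7.59 and 7.31 in DMSO, a change of -0.76 ± 0.15 (adjusted p = 0.000229). SDHC, the partner anchor, had 7.89, 8.07 and 8.05 in R406, against 7.54 and 7.78 in DMSO, a change of 0.34 ± 0.12 (adjusted p = 0.0323). The rise of SDHC rests on its probe set: with probe sets whose name marks possible cross-hybridisation left out, the change was -0.03. It also missed the threshold at 0.22 without replicate 1 of DHL4 DMSO. SDHA, the flavin-binding subunit, stood at -0.25 ± 0.12 and did not pass the test (adjusted p = 0.13).

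In complex III, 4 of 7 genes (57.1%) fell and 1 rose, with a median of -0.43, where 16.5% of all genes and 47.0% of the brighter genes fell. UQCRC1, a core protein on the matrix side, had 6.95, 7.11 and 7.16 in R406 at 24 h, against 8.24 and 8.10 in DMSO. It fell by 1.09 ± 0.12 (adjusted p = 5.33e-08). CYC1, the haem-bearing cytochrome c1, had 7.62, 7.70 and 7.58 in R406, against 8.78 and 8.55 in DMSO, a change of -1.03 ± 0.10 (adjusted p = 8.64e-09). UQCRB, a small subunit needed for the stability of the complex, went the other way, with 10.54, 10.38 and 10.44 in R406 and 9.76 and 9.88 in DMSO. It rose by 0.63 ± 0.09 (adjusted p = 6.94e-06). The R406 and DMSO arrays of all 3 genes were apart, below DMSO for UQCRC1 and CYC1 and above it for UQCRB.

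In complex IV, 6 of 13 genes (46.2%) fell and 2 rose, with a median of -0.01. That share was above the 16.5% of all genes that fell and close to the 47.0% of the brighter genes. COX7B, a small membrane subunit, had 9.31, 9.31 and 9.11 in R406, against 10.21 and 10.22 in DMSO, a change of -0.97 ± 0.12 (adjusted p = 4.66e-07). COX5A, which faces the matrix, had 10.39, 10.25 and 10.26 in R406, against 11.02 and 10.99 in DMSO, and fell by 0.71 ± 0.09 (adjusted p = 8.47e-07). COX4I1, a subunit that joins early in assembly and takes part in the regulation of the enzyme by ATP, had 11.24, 11.38 and 11.31 in R406, against 11.02 and 10.96 in DMSO. It rose by 0.32 ± 0.09 (adjusted p = 0.00538), and lost the call at 0.29 without replicate 2 of DHL4 DMSO. COX6B1, which faces the space between the membranes, had 10.52, 10.57 and 10.45 in R406 and 10.42 and 10.39 in DMSO, a change of 0.11 (adjusted p = 0.452).

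Complex V held both the largest fall and the largest rise of the 71 genes. Of its 17 genes 10 (58.8%) fell and 3 rose, with a median of -0.43, where 16.5% of all genes and 47.0% of the brighter genes fell. ATP5MC1 is one of 3 genes for subunit c, the ring that proton flow turns. It had 4.63, 4.64 and 5.09 in DHL4 at 24 h, against 7.09 and 6.78 in DMSO. The fall was 2.15 ± 0.16 (adjusted p = 9.71e-11), or 4.43-fold. The other subunit c genes parted. ATP5MC3 changed by -0.79 ± 0.09 (adjusted p = 1.66e-07). ATP5MC2 had 11.25, 11.30 and 11.31 in R406, against 10.79 and 10.85 in DMSO, and rose by 0.46 ± 0.09 (adjusted p = 0.000139). As the mean of its probe sets ATP5MC2 changed by 0.18, which missed the threshold.

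ATP5MG, subunit g, which lies in the membrane part where ATP synthases pair, had 11.78, 11.84 and 11.91 in R406, against 10.73 and 10.71 in DMSO. It rose by 1.12 ± 0.09 (adjusted p = 2.19e-10), or 2.18-fold, and all 4 of its probe sets rose, by 1.02 to 2.36. Genes of the catalytic head fell: ATP5F1B, the beta subunit that makes ATP, by 0.93 ± 0.10, ATP5F1A, the alpha subunit, by 0.48 ± 0.09, and ATP5F1C, the gamma shaft, by 0.43 ± 0.08 (adjusted p = 5.7e-08, 9.98e-05 and 0.000114). ATP5F1D, the delta subunit of the stalk, had 7.73, 7.86 and 7.77 in R406, against 8.68 and 8.38 in DMSO, a change of -0.75 ± 0.16 (adjusted p = 0.000498). Its neighbour ATP5F1E, the epsilon subunit, rose by 0.34 ± 0.09 (adjusted p = 0.00572). ATP5IF1, the inhibitor that stops the enzyme from running backwards, fell by 0.82 ± 0.10 (adjusted p = 3.91e-07).

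Several genes had more than 1 probe set. Of 21 such genes, 16 had another probe set with a mean above 5, and in 12 of these every such probe set gave the same call in DHL4 at 24 h. The exceptions were ATP5MJ, COX7C, NDUFB8 and SDHC.

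**Figure D2:**
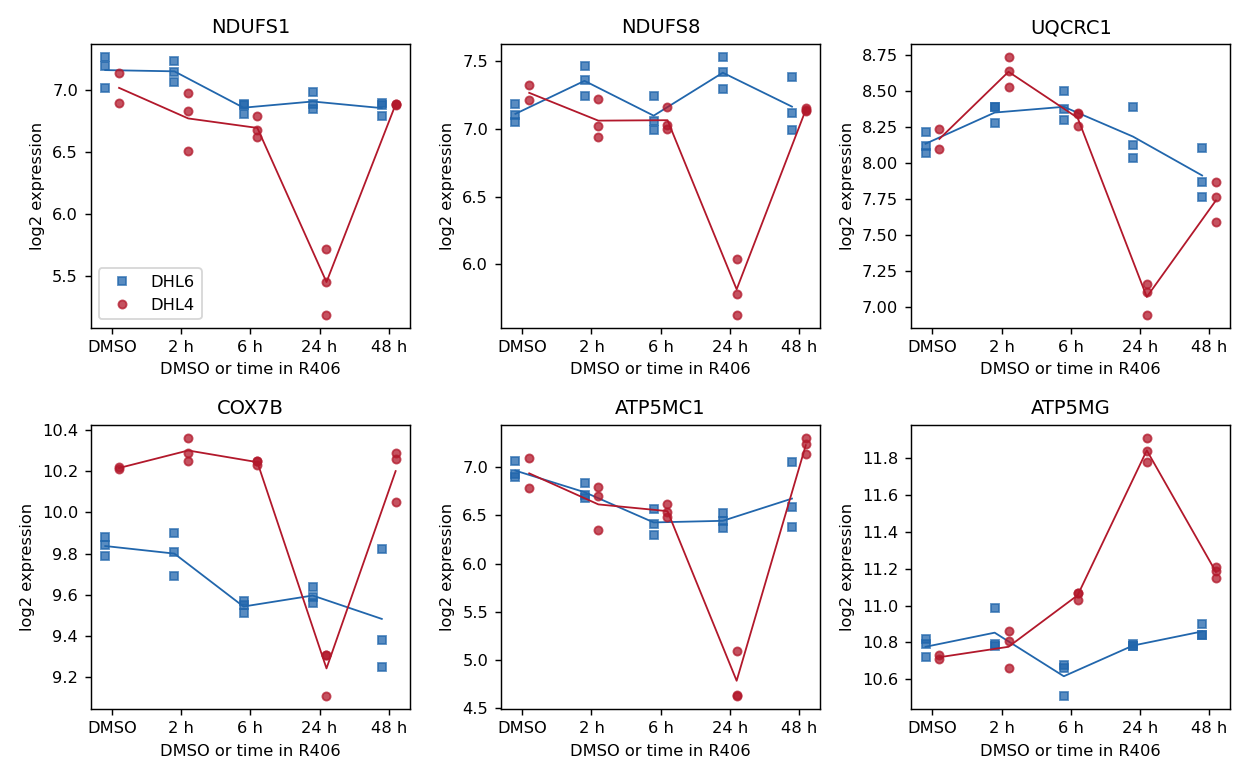
Log2 expression of 6 subunit genes in every array (points) with group means (lines) in DMSO and after 2, 6, 24 and 48 h of R406, in DHL6 (blue squares) and DHL4 (red circles); each panel has its own scale. The 3 DHL4 arrays at 24 h lie apart from the other DHL4 arrays in all 6 panels, below them in 5 and above them for ATP5MG.

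The start regions of 5 genes are shown because 3 of them fell and carry a motif of a factor known for this gene family, while the other 2 had the largest fall and the largest rise. NRF1 and the ETS factor GABP are known to drive many nuclear genes of oxidative phosphorylation. RefSeq promoters of build GRCh38.p14 were found for 59 of the 71 genes, and the 250 bases before the first listed start were searched on both strands. Each line gives the 150 bases before the start in the direction of transcription, with matches in capitals. NDUFS3 (chr11:47578924-47579073, plus strand) holds the ETS core at 2 places, UQCRC1 (chr3:48609647-48609796, minus strand) holds the NRF1 core, SDHD (chr11:112086723-112086872, plus strand) holds both, and ATP5MC1 (chr17:48892637-48892786, plus strand) and ATP5MG (chr11:118401456-118401605, plus strand) hold none.
NDUFS3: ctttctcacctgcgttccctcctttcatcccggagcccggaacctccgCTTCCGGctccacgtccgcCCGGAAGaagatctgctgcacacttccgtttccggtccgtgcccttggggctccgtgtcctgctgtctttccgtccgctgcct
UQCRC1: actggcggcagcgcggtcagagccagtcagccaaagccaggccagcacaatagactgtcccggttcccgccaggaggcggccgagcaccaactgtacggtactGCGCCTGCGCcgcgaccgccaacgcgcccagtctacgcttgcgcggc
SDHD: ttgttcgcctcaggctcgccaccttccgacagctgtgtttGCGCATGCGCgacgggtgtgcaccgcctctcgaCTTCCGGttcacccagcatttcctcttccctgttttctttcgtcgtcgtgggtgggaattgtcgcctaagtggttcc
ATP5MC1: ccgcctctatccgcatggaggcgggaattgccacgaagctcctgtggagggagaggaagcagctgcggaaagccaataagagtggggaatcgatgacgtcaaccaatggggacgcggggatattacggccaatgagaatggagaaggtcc
ATP5MG: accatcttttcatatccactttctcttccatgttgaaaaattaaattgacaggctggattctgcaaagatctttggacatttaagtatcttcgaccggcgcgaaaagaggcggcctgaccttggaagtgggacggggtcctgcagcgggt

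The NRF1 core, searched as GCGCA, any base and GCGC, stood in 10 of the 59 promoters (16.9%), against 8.68% of 9711 measured genes and 5.53% of all 27305 promoters. The ETS core, searched as CCGGAAG, stood in 14 (23.7%), against 12.8% of measured genes and 8.82% of all. Both motifs were thus more frequent in these windows of the subunit genes than over all measured genes, as a description with no test. Set against the calls in DHL4 at 24 h, again with no test, the NRF1 core stood in 5 of 30 genes that fell (16.7%) and in 5 of 24 that did not pass the test (20.8%), and the ETS core in 8 of 30 (26.7%) and 6 of 24 (25%). Of 5 genes that rose, 0 held either. The MYC-type E-box, CACGTG, stood in 4 of 59 (6.78%), against 8.29% of measured genes. The YY1 core, AAGATGGC, stood in 1 (1.69%), against 1.58%. The motifs overlap in none of the 3 printed windows that hold them, and a match is only a description of the letters there.

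At 48 h the subunit genes of DHL4 were close to their DMSO levels. Against DMSO 2 fell and 7 rose, where 3.80% of all genes fell and 3.53% rose, and the median was 0.06. The shares among the brighter genes were not counted here. None of the 6 core complex I genes passed the limma test (0 of 6), although NDUFS7 still stood at -0.58 (adjusted p = 0.0833). ATP5MC1 had 7.30, 7.24 and 7.14 at 48 h, all above both DMSO arrays. The largest rises were in ATP5MG, at 0.47 ± 0.09 (adjusted p = 0.00121), NDUFB5, at 0.44 ± 0.12 (adjusted p = 0.0168), and NDUFB2, an accessory complex I subunit, at 0.42 ± 0.08 (adjusted p = 0.00144). COX8A, a small complex IV subunit, fell by 0.46 ± 0.10 (adjusted p = 0.00318), and UQCRC1 fell by 0.42 ± 0.12 (adjusted p = 0.0274). The 9 calls dropped to 4 without replicate 1 of DHL4 DMSO, to 2 without its replicate 2 and to 4 without replicate 3 at 48 h.

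Comparisons within the R406 arrays do not use the DMSO arrays. At 48 h against 24 h in DHL4, 41 subunit genes were higher and 4 lower, with a median of 0.48, where 14.4% of all genes were higher and 10.7% lower. Among the brighter genes, 38 of 64 subunit genes (59.4%) were higher and 4 (6.25%) lower, against 41.7% and 21.2% of all such genes, with medians of 0.50 and 0.17. The leading genes were ATP5MC1, at 2.44 ± 0.15 (adjusted p = 2.09e-12), NDUFS1, at 1.44 ± 0.12 (adjusted p = 7.51e-10), and NDUFS8, at 1.32 ± 0.11 (adjusted p = 1.3e-09). Lower at 48 h were ATP5MG, by -0.66 ± 0.08 (adjusted p = 4.12e-07), ATP5MC2, by -0.35 ± 0.08 (adjusted p = 0.0011), UQCRB, by -0.27 ± 0.08 (adjusted p = 0.0206), and UQCRH, by -0.25 ± 0.08 (adjusted p = 0.0157). This comparison shares its 24 h arrays with the one against DMSO, so the 2 are not independent.

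At 24 h against 2 h in DHL4, 44 subunit genes were lower and 7 higher, with a median of -0.41, where 14.0% of all genes were lower and 16.0% higher. The shares among the brighter genes were not counted for this comparison, so the all-gene shares may set too low a background. ATP5MC1 changed by -1.83 ± 0.15 (adjusted p = 2.95e-10), UQCRC1 by -1.56 ± 0.11 (adjusted p = 1.73e-11) and NDUFV1 by -1.50 ± 0.13 (adjusted p = 1.43e-09). ATP5MG was higher by 1.07 ± 0.08 (adjusted p = 9.54e-11), UQCRB by 0.44 ± 0.08 (adjusted p = 0.000203) and COX7A2L, which links complexes III and IV, by 0.36 ± 0.10 (adjusted p = 0.00881). More subunit genes were thus lower at 24 h than at either 2 h or 48 h.

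Early in DHL4 few subunit genes changed. At 2 h, 2 rose and 0 fell by the limma test, where 2.67% of all genes rose and 6.81% fell, and 7 genes had an unadjusted p below 0.05. The 2 were UQCRC1, at 0.47 ± 0.12 (adjusted p = 0.011), with 8.53, 8.64 and 8.74 in R406 and 8.24 and 8.10 in DMSO, and NDUFB11, an accessory complex I subunit, at 0.39 ± 0.10 (adjusted p = 0.0122). There was 1 call without either DHL4 DMSO array, or without replicate 2 or 3 at 2 h. At 6 h, 6 rose and 1 fell, where 6.42% of all genes rose and 6.36% fell. SDHC rose by 0.45 ± 0.12 (adjusted p = 0.0121), but by 0.08 without probe sets marked for possible cross-hybridisation and 0.26 as the mean of its probe sets, neither of which passed the test (adjusted p = 0.919 and 0.0804). NDUFB1, an accessory subunit of complex I, rose by 0.37 ± 0.11 (adjusted p = 0.0202), and ATP5PD, a subunit of the side stalk of complex V, by 0.36 ± 0.10 (adjusted p = 0.0225). CYC1 fell. These 7 calls became 1 without replicate 1 of DHL4 DMSO, 2 without its replicate 2 and 4 without replicate 1 at 6 h.

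In DHL6 the subunit genes changed little, and the direction of the balance was not fixed. At 24 h 5 fell and 4 rose, with a median of 0.03, where 8.17% of all genes fell and 6.20% rose. Among the brighter genes 4 of 64 subunit genes (6.25%) fell and 4 rose, against 24.4% and 15.5% of all such genes. With quantile normalization 5 fell and 13 rose, and with each array centred on its median 11 fell and 1 rose, so that the sign of the balance turns with the scaling. Of all genes, 1004 fell and 939 rose with quantile normalization, and 1158 fell and 611 rose with centring. The 9 calls became 3 without replicate 1 of DHL6 DMSO, 5 without its replicate 2 or 3 or without replicate 1 at 24 h, and 15 without replicate 2 at 48 h. Without the 4 arrays that stood apart, 12 fell and 7 rose.

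The genes that fell in DHL6 at 24 h were SDHD, ATP5MC1, ATP5F1D, ATP5IF1 and COX5A. SDHD had 6.69, 6.44 and 6.43 in R406, against 7.00, 7.06 and 7.10 in DMSO, a change of -0.53 ± 0.13 (adjusted p = 0.00656). ATP5MC1 had 6.37, 6.44 and 6.52 in R406, against 6.90, 6.93 and 7.06 in DMSO, a change of -0.52 ± 0.15 (adjusted p = 0.016). The R406 and DMSO arrays of both genes did not overlap. ATP5F1D changed by -0.42 ± 0.14 (adjusted p = 0.0463), a call lost without any 1 of the 6 arrays compared (adjusted p = 0.0758 to 0.153) and without some arrays of other groups. COX5A changed by -0.28 ± 0.08 (adjusted p = 0.0205), but by -0.16 after quantile normalization and -0.15 as the mean of its probe sets, both short of the threshold (adjusted p = 0.147 and 0.364). ATP5MC1 lost the call without replicate 3 of DMSO or replicate 1 at 24 h (adjusted p = 0.0721 and 0.0613). All 5 called genes also fell in DHL4, which is 100% of the DHL6 list and 13.2% of the DHL4 list of 38. Of all 71 subunit genes, 53.5% fell and 9.86% rose in DHL4 at 24 h. The overlap of the lines over all genes was not counted. Of the 4 that rose in DHL6, NDUFB5 had 9.24, 9.14 and 9.04 in R406, against 8.74, 8.79 and 8.80 in DMSO, a change of 0.36 ± 0.10 (adjusted p = 0.0174). COX5B, the zinc-binding complex IV subunit, rose by 0.36 ± 0.10 (adjusted p = 0.0178), COX4I1 by 0.31 ± 0.08 (adjusted p = 0.00711) and COX6B1 by 0.26 ± 0.08 (adjusted p = 0.0371). COX4I1 was the 1 gene called as a rise in both lines, 25% of the DHL6 list and 14.3% of the DHL4 list. In DHL6 its change was 0.19 and missed the threshold both without probe sets marked for possible cross-hybridisation and as the mean of its probe sets (adjusted p = 0.188 and 0.313). COX5B as the mean of its probe sets changed by 0.18 (adjusted p = 0.346), and COX6B1 changed by 0.20 after centring (adjusted p = 0.141) and lost the call without 5 of the 6 arrays compared.

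At 2 h in DHL6, 0 subunit genes passed the limma test and 10 had an unadjusted p below 0.05, all with a positive sign, where 2.14% of all genes rose and 3.16% fell. With limma-trend 3 rose, and with quantile normalization 4 did. At 6 h 6 fell and 1 rose, where 5.12% of all genes fell and 3.14% rose. ATP5MC1 fell by 0.53 ± 0.15 (adjusted p = 0.0207), ATP5IF1 by 0.46 ± 0.09 (adjusted p = 0.00123) and NDUFA13, an accessory complex I subunit also known as GRIM-19, by 0.45 ± 0.11 (adjusted p = 0.0067). These 7 calls became 4, 3 and 3 without replicates 1, 2 and 3 of DHL6 DMSO, 3 without replicate 3 at 6 h, and 13 without replicate 2 at 48 h.

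At 48 h in DHL6, 5 fell and 10 rose, where 14.9% of all genes fell and 8.39% rose. NDUFB5 rose by 0.52 ± 0.10 (adjusted p = 0.000549) and NDUFB8, an accessory complex I subunit, by 0.51 ± 0.10 (adjusted p = 0.000583). The largest rise was in COX7A1, at 0.57 ± 0.21 (adjusted p = 0.0475), with 3.76, 2.62 and 3.02 in R406 and 2.50, 2.62 and 2.58 in DMSO, near the floor. The largest falls were in NDUFA10, an accessory complex I subunit, at -0.69 ± 0.17 (adjusted p = 0.00443), in NDUFA6, at -0.54 ± 0.18 (adjusted p = 0.0294), and in ATP5F1D, at -0.44 ± 0.14 (adjusted p = 0.0244). Both kinds of change were recomputed without the 4 arrays that stood apart. In that fit DHL6 at 48 h is 1 array, assumed to vary like the others, and 11 genes rose and 0 fell by limma. COX7A1 then changed by 0.06 (adjusted p = 0.91). NDUFA10 then changed by -0.34, NDUFA6 by -0.32 and ATP5F1D by -0.22 (adjusted p = 0.22, 0.415 and 0.405), while NDUFB5 stayed at 0.53 and NDUFB8 at 0.69 (adjusted p = 0.0133 and 0.00174). As the mean of its probe sets over all arrays NDUFB8 changed by 0.20 and was not called (adjusted p = 0.289). Without replicate 2 at 48 h, 23 genes were called. Scaling turned the balance here too, with 1 fall and 27 rises after quantile normalization, and 14 falls and 6 rises after centring. Over all genes there were 1341 falls and 1228 rises after quantile normalization, and 2219 falls and 585 rises after centring. ATP5ME, NDUFA3 and NDUFB5 rose at 48 h in both lines, 30% of the DHL6 list and 42.9% of the DHL4 list. Of all 71 subunit genes, 14.1% rose in DHL6 and 9.86% in DHL4 at 48 h. The overlap over all genes was not counted.

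Within the R406 arrays of DHL6 few subunit genes were called around 24 h, which does not show that their levels were flat. From 2 h to 24 h, 44 changes were negative and 27 positive, with a median of -0.05. From 24 h to 48 h, 26 were negative and 45 positive, with a median of 0.06. At 24 h against 2 h, 3 genes were lower and 0 higher by limma, where 4.84% of all genes were lower and 3.93% higher, and 15 had an unadjusted p below 0.05. SDHD changed by -0.61 ± 0.13 (adjusted p = 0.00357), COX8A by -0.38 ± 0.09 (adjusted p = 0.00575) and NDUFB6, an accessory complex I subunit, by -0.36 ± 0.11 (adjusted p = 0.0387). These 3 calls became 5 without replicate 3 of DHL4 at 2 h or without replicate 1 or 2 of DHL6 at 48 h. At 48 h against 24 h, 0 genes passed the limma test, where 5.06% of all genes were lower and 1.65% higher, 12 had an unadjusted p below 0.05 and limma-trend called 1. Single arrays moved this 0 to at most 3, which was without replicate 2 of DHL6 at 48 h.

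The difference between the lines in their response was tested as an interaction term, DHL6 minus DHL4. At 24 h, 28 of the 71 genes had a higher response in DHL6 and 3 a lower one, with a median difference of 0.33, where 9.35% of all genes were higher and 7.00% lower. Among the brighter genes, 25 of 64 subunit genes (39.1%) were higher and 3 (4.69%) lower, against 29.8% and 14.9% of all such genes, with medians of 0.34 and 0.17. All 6 core complex I genes were among the 28, with differences of 0.81 to 1.75. NDUFS8 had 7.53, 7.29 and 7.42 in DHL6 at 24 h, against 7.10, 7.18 and 7.05 in DHL6 DMSO, so its DHL6 arrays lay above DMSO while those of DHL4 lay below. In DHL6 alone the change of 0.30 did not pass the test (adjusted p = 0.0844). The difference in response was 1.75 ± 0.17 (adjusted p = 3.96e-08). For ATP5MC1 it was 1.63 ± 0.22 (adjusted p = 4.94e-06) and for NDUFS7 1.42 ± 0.27 (adjusted p = 0.000374).

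The 3 genes with a lower response in DHL6 were ATP5MG, at -1.12 ± 0.12 (adjusted p = 1.87e-07), UQCRB, at -0.48 ± 0.13 (adjusted p = 0.00819), and UQCRH, the hinge protein of complex III, at -0.40 ± 0.11 (adjusted p = 0.0137). ATP5MG had 10.79, 10.78 and 10.78 in DHL6 at 24 h, against 10.72, 10.79 and 10.82 in DHL6 DMSO, groups that overlap. The differences of UQCRB and UQCRH missed the threshold without replicate 1 of DHL4 DMSO. For SDHD, ATP5F1D and NDUFA6, which fell in DHL4, the difference between lines did not pass the test, at 0.23 ± 0.20, 0.33 ± 0.21 and 0.51 ± 0.27 (adjusted p = 0.596, 0.397 and 0.254), which does not show that they responded alike. The counts were 27 higher and 3 lower with quantile normalization and 28 and 3 with centring.

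**Figure D3:**
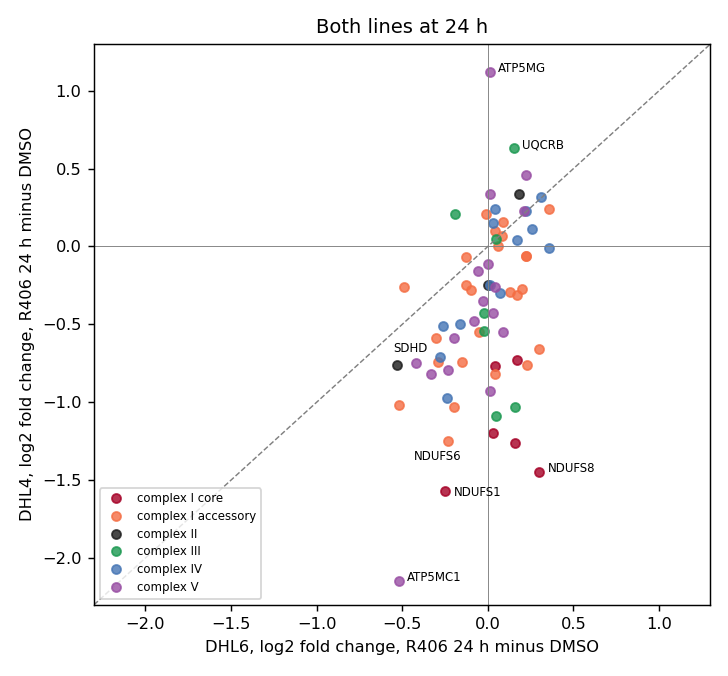
Log2 fold change of R406 at 24 h over DMSO for the 71 subunit genes in DHL6 (horizontal) and DHL4 (vertical), coloured by complex; the dashed line marks equal change. Changes ran from -0.53 to 0.36 in DHL6 and from -2.15 to 1.12 in DHL4.

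At the other times the lines differed in few subunit genes. At 2 h, 0 differed by limma or limma-trend and 3 had an unadjusted p below 0.05, where 1.22% of all genes had a higher and 0.534% a lower response in DHL6. At 6 h, 1 was higher and 5 lower, where 3.08% of all genes were higher and 3.96% lower. CYC1 went opposite ways. It had 8.43, 8.45 and 8.62 in DHL6 at 6 h, against 7.86, 7.92 and 7.84 in DHL6 DMSO, and rose by 0.63 ± 0.09 (adjusted p = 2.37e-05). In DHL4 it had 8.35, 8.17 and 8.29 at 6 h, against 8.78 and 8.55 in DMSO, and fell by 0.40 ± 0.10 (adjusted p = 0.00737). The difference was 1.03 ± 0.14 (adjusted p = 1.29e-05). NDUFB1 was lower by -0.57 ± 0.14, NDUFA1 by -0.51 ± 0.14 and NDUFC1 by -0.50 ± 0.14 (adjusted p = 0.0131, 0.024 and 0.0331), all accessory subunits of complex I. The 6 calls became 3 without replicate 1 of DHL4 DMSO, 1 without its replicate 2, and 3 without replicate 1 of DHL4 or replicate 3 of DHL6 at 6 h. At 48 h 1 gene was lower, NDUFA10, at -0.95 ± 0.26 (adjusted p = 0.0321), with 12 at an unadjusted p below 0.05 and 4 called by limma-trend, where 3.46% of all genes were lower and 1.62% higher. It was lost, at -0.60 (adjusted p = 0.146), without the 4 arrays that stood apart. Leaving out single arrays gave 0 to 6 differences at 48 h, with 6 without replicate 2 of DHL6 at 48 h and 2 without its replicate 3. There were 0 without replicate 1 of DHL6 at 48 h, replicate 1 or 2 of DHL6 DMSO, either DHL4 DMSO array, or replicate 1 or 3 of DHL4 at 48 h.

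The lines also differed before any R406. In DMSO, 22 of the 71 genes were lower in DHL6 than in DHL4 and 4 were higher, with a median of -0.15, where 10.5% of all genes were lower and 10.0% higher. Among the brighter genes, 21 of 64 subunit genes (32.8%) were lower and 3 (4.69%) higher, against 23.1% and 23.0% of all such genes. NDUFS7 had 5.90, 6.15 and 6.09 in DHL6, against 7.75 and 7.71 in DHL4, a difference of -1.68 ± 0.20 (adjusted p = 3.79e-07). NDUFC1 had 7.89, 7.92 and 7.78 in DHL6, against 9.34 and 9.35 in DHL4, a difference of -1.48 ± 0.11 (adjusted p = 7.48e-11). NDUFA5, another accessory subunit of complex I, differed by -1.46 ± 0.39 (adjusted p = 0.0069). NDUFS4, which joins the NADH-oxidising arm late in assembly, was higher by 0.81 ± 0.20 (adjusted p = 0.0031), UQCRH by 0.54 ± 0.08 (adjusted p = 1.8e-05) and COX6C, a small subunit of complex IV, by 0.52 ± 0.08 (adjusted p = 3.92e-05). The DMSO levels of NDUFS1, NDUFS8, UQCRC1 and ATP5MC1 differed between the lines by -0.16 to 0.14, and none of these differences passed the test. Other genes with a higher 24 h response in DHL6 did not start level. Of the 6 core complex I genes, 3 (50%) were lower in DHL6 DMSO. NDUFV2 had 8.82, 8.84 and 8.73 in DHL6, against 10.12 and 10.11 in DHL4, and CYC1 had 7.86, 7.92 and 7.84, against 8.78 and 8.55.

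Genes around the respiratory chain were counted from lists of related processes, to be read against the shares that fell at 24 h over all genes, 8.17% in DHL6 and 16.5% in DHL4, and over the brighter genes, 24.4% in DHL6 and 47.0% in DHL4. Of 15 measured genes of the citric acid cycle and pyruvate dehydrogenase, 4 (26.7%) fell in DHL6 and 11 (73.3%) in DHL4. DLST, which belongs to the 2-oxoglutarate dehydrogenase complex, changed by -3.11 ± 0.26 in DHL4 (adjusted p = 5.91e-10), and IDH3A, a subunit of the NAD-dependent isocitrate dehydrogenase, by -2.20 ± 0.38 (adjusted p = 5.1e-05). In DHL6 the largest falls were in SUCLG2, a succinyl-CoA ligase subunit, at -0.97 ± 0.24 (adjusted p = 0.00525), and DLAT, of pyruvate dehydrogenase, at -0.91 ± 0.25 (adjusted p = 0.014). Of 6 carriers and feeders of electrons, 2 (33.3%) fell in DHL6 and 3 (50%) in DHL4. Cytochrome c itself, CYCS, changed by -0.83 ± 0.11 in DHL6 (adjusted p = 4.1e-06) and by -1.68 ± 0.12 in DHL4 (adjusted p = 3.7e-11), a difference of 0.85 ± 0.16 (adjusted p = 0.000417). ETFDH, which feeds electrons from fatty acid oxidation, changed by -0.61 ± 0.16 in DHL6 (adjusted p = 0.0109), and ETFB, its electron donor's subunit, by -1.16 ± 0.21 in DHL4 (adjusted p = 7.54e-05).

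Assembly factors and ubiquinone synthesis moved in both directions. Of 26 measured assembly factors, 4 (15.4%) fell and 2 rose in DHL6, and 12 (46.2%) fell and 3 rose in DHL4. NDUFAF4, an assembly factor of complex I, changed by -1.14 ± 0.23 in DHL6 (adjusted p = 0.000823) and by -2.76 ± 0.26 in DHL4 (adjusted p = 3.4e-09). TMEM70, an assembly factor of complex V, changed by -0.62 ± 0.10 in DHL6 (adjusted p = 5.33e-05), and SCO2, which delivers copper to complex IV, by -1.82 ± 0.19 in DHL4 (adjusted p = 2.38e-08). SURF1, an assembly factor of complex IV, rose by 0.85 ± 0.11 in DHL6 (adjusted p = 4.83e-06) and NDUFAF3 by 0.57 ± 0.13 (adjusted p = 0.00215), and in DHL4 COA1 rose by 0.90 ± 0.16 and ATPAF2 by 0.51 ± 0.17 (adjusted p = 5.85e-05 and 0.0254). NDUFAF3 went opposite ways, since it fell by 0.57 ± 0.14 in DHL4 (adjusted p = 0.00253), a difference of 1.13 ± 0.19 (adjusted p = 7.98e-05). Of 11 genes of ubiquinone synthesis, 3 (27.3%) fell and 2 rose in DHL6, and 3 (27.3%) fell and 1 rose in DHL4. PDSS1, which makes the side chain of ubiquinone, changed by -0.94 ± 0.16 in DHL6 (adjusted p = 0.000104) and by -2.76 ± 0.18 in DHL4 (adjusted p = 3.72e-12). COQ2, which joins the side chain to the ring, changed by -1.25 ± 0.20 in DHL6 (adjusted p = 4.12e-05) and by -1.32 ± 0.22 in DHL4 (adjusted p = 2.6e-05). COQ8A, a kinase-like protein of the pathway, rose by 1.77 ± 0.23 in DHL6 and by 0.85 ± 0.25 in DHL4 (adjusted p = 2.38e-06 and 0.0109), and COQ9 rose by 0.53 ± 0.15 in DHL6 (adjusted p = 0.014).

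Glycolytic genes were counted beside these. Of 18 measured, 7 (38.9%) fell and 4 rose in DHL6 at 24 h, and 10 (55.6%) fell and 1 rose in DHL4. In DHL6 ALDOC changed by -0.93 ± 0.19 and ALDOA by -0.67 ± 0.09 (adjusted p = 0.00111 and 5.02e-06), both aldolases, while the phosphofructokinases PFKP and PFKM rose by 0.94 ± 0.13 and 0.74 ± 0.17 (adjusted p = 1.1e-05 and 0.00278). In DHL4 GPI, glucose-6-phosphate isomerase, changed by -2.26 ± 0.16 (adjusted p = 1.67e-11) and LDHA, a lactate dehydrogenase subunit, by -2.09 ± 0.12 (adjusted p = 8.65e-13). SLC2A1, the glucose transporter GLUT1, rose by 0.56 ± 0.15 in DHL4 (adjusted p = 0.00621).

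Of 14 measured regulators of mitochondrial biogenesis, 3 (21.4%) fell and 1 rose in DHL6 at 24 h, and 8 (57.1%) fell in DHL4. MYC, which is known to drive many genes of metabolism, was the 1 that rose in DHL6, by 0.96 ± 0.07, 1.11 ± 0.07, 1.00 ± 0.07 and 0.74 ± 0.07 at 2, 6, 24 and 48 h (adjusted p = 3.27e-09, 1.5e-10, 4.6e-10 and 6.02e-08). In DHL4 it fell by 1.31 ± 0.08, 1.33 ± 0.08 and 1.34 ± 0.08 at 2, 6 and 24 h (adjusted p = 4.9e-11, 1.84e-11 and 2.42e-12) and stood at 0.19 ± 0.08 at 48 h (adjusted p = 0.231). The MYC fall in DHL4 was thus already in place at 2 h, when 0 subunit genes fell by limma and 2 had a negative change with an unadjusted p below 0.05. PPRC1, a coactivator related to PGC-1, changed in DHL4 by -1.48, -1.63 and -2.42 at 2, 6 and 24 h (adjusted p = 3.6e-05, 4.78e-06 and 1.93e-09) and stood at -0.64 at 48 h (adjusted p = 0.0774). In DHL6 it changed by -0.75 and -1.10 at 24 and 48 h (adjusted p = 0.00851 and 0.000163). TFAM, which packs mitochondrial DNA, changed at 24 h by -0.85 ± 0.18 in DHL6 (adjusted p = 0.0016) and by -1.42 ± 0.20 in DHL4 (adjusted p = 3.48e-06). TWNK, the mitochondrial DNA helicase, changed by -2.02 ± 0.20 in DHL4 at 24 h (adjusted p = 7.43e-09). NRF1 passed the test at no time in either line (0 of 8 comparisons by limma), with group means of 4.17 to 4.59. PPARGC1A, the coactivator PGC-1 alpha, stayed near the floor, at group means of 2.57 to 2.87. GABPA was not analysed here. What part MYC or any regulator had in the subunit genes' levels was not tested.

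**Figure D4:**
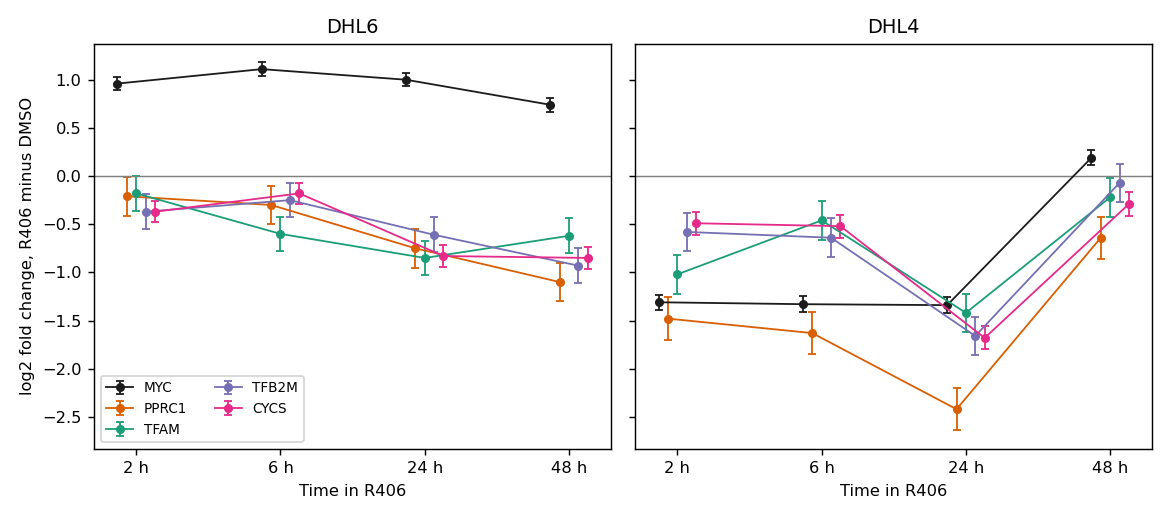
Log2 fold change of R406 over DMSO with its standard error for MYC, PPRC1, TFAM, TFB2M and CYCS at 2, 6, 24 and 48 h in DHL6 (left) and DHL4 (right). MYC lies between 0.74 and 1.11 at all 4 times in DHL6, and between -1.34 and -1.31 at 2 to 24 h in DHL4.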

How the data were processed

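Total RNA was labelled as biotinylated cRNA and hybridised to Affymetrix high-throughput arrays, per the labels' protocols. The deposited log2 values were made by the authors with RMA, per the submitters' processing notes, whose version is not given there. RMA shrinks differences near the floor. Of 22277 probe sets, 19724 carried 1 gene symbol, 568 several and 1923 none, and 62 were controls. For each of 12165 genes the probe set with the highest mean was used. The fit was group means over 29 arrays in limma 3.58.1 (R 4.3.3) with lmFit and eBayes, giving 19 residual and 5.05 prior degrees of freedom, 17 contrasts, and Benjamini-Hochberg adjustment over all genes within each contrast. Calls needed an adjusted p below 0.05. The fit was also run on simulated data with independent noise for each gene. Shifts of whole arrays were not simulated, so that run cannot speak to scaling or to the arrays that stood apart. The genes, lists and tests were chosen with earlier results of these data known. Values per array are given for the genes of each complex with the largest called 24 h change in either line and those most extreme the other way, and for genes called in opposite directions. For each comparison with DMSO, between lines or between times the 3 largest called changes each way are named, and for each pathway list the 2 largest called changes each way at 24 h in each line. MYC, NRF1, GABPA, TFAM, PPARGC1A, PPRC1, CYCS and SYK are always named; further genes were named after their values were seen. Alternatives were quantile normalization, median centring, limma-trend, the mean of probe sets, every probe set, no probe sets of the _x_at kind, the dimmest 25% of genes left out, the compared groups only, a replicate block, single arrays left out and, chosen after seeing the data, the 4 arrays that stood apart left out. The number of arrays limits the precision. Promoter sequences are RefSeq's.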

Additional observations from a re-analysis of the deposited data

Results flagged for a closer look

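The difference between the lines in their response to R406, DHL6 minus DHL4, passed the limma interaction test (adjusted p below 0.05 over all genes) for the following genes. At 24 h 31 subunit genes differed. A higher response in DHL6 was called in 39.4% of the 71 and a lower one in 4.23%, against 9.35% and 7.00% of all genes. NDUFS8 differed by 1.75, ATP5MC1 by 1.63 and NDUFS7 by 1.42 on the log2 scale, and ATP5MG differed by -1.12, UQCRB by -0.48 and UQCRH by -0.40. The differences of UQCRB and UQCRH rest on replicate 1 of DHL4 DMSO, without which their adjusted p was 0.0625 and 0.0537. At 6 h 6 subunit genes differed, 1.41% of the 71 with a higher and 7.04% with a lower response. Over all genes the shares were 3.08% and 3.96%. Among the 6 were CYC1 by 1.03, NDUFB1 by -0.57, NDUFA1 by -0.51 and NDUFC1 by -0.50. NDUFC1 missed the threshold without the 4 arrays that stood apart, at -0.44 (adjusted p = 0.05). At 48 h 1 differed (1.41%), NDUFA10 by -0.95, where 3.46% of all genes had a lower and 1.62% a higher response. MYC differed by 2.27, 2.44, 2.34 and 0.56 at 2, 6, 24 and 48 h.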

How the results depend on the processing

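In DHL4 at 24 h more subunit genes fell than rose under every alternative run, and single arrays left out gave 38 to 48 calls. The line difference at 24 h gave 23 to 33 calls, DHL4 at 24 h against 2 h gave 47 to 52, DHL4 at 48 h against 24 h gave 44 to 46 and the DMSO difference gave 19 to 28. Leaving out single arrays gave 1 to 2 calls in DHL4 at 2 h, 1 to 7 at 6 h and 2 to 12 at 48 h. In DHL6 it gave 0 to 1 call at 2 h, 3 to 13 at 6 h, 3 to 15 at 24 h and 10 to 23 at 48 h. For the line difference it gave 0 calls throughout at 2 h, 1 to 7 at 6 h and 0 to 6 at 48 h, and in DHL6 2 to 5 at 24 h against 2 h and 0 to 3 at 48 h against 24 h. Fitting only the compared groups, with fewer arrays behind the spread, gave 0 calls in DHL4 at 2 h, 4 in DHL4 at 48 h, 2 in DHL6 at 48 h and 0 for the line difference at 48 h. Quantile normalization gave 4, 18 and 28 calls in DHL6 at 2, 24 and 48 h, 12 in DHL4 at 6 h, 4 for the line difference at 48 h, and 6 in DHL6 both at 24 h against 2 h and at 48 h against 24 h. Limma-trend gave 3, 15 and 19 calls in DHL6 at 2, 6 and 24 h, 12 in DHL4 at 6 h, 12 and 4 for the line difference at 6 and 48 h, and 9 and 1 in DHL6 at 24 h against 2 h and at 48 h against 24 h. Centring gave 11 in DHL6 at 6 h, 2 for the line difference at 48 h and 1 in DHL6 at 48 h against 24 h. The mean of probe sets gave 11 both in DHL6 and for the line difference at 6 h, and 8 and 1 in DHL6 at 24 h against 2 h and at 48 h against 24 h. Every probe set on its own gave 5 in DHL6 at 24 h against 2 h, and leaving out the dimmest 25% of genes gave 1 in DHL6 at 48 h against 24 h. Without the 4 arrays that stood apart, chosen after seeing the data, the calls were 3 and 19 in DHL6 at 2 and 24 h, 0 for the line difference at 48 h, and 8 and 3 in DHL6 at 24 h against 2 h and at 48 h against 24 h. For other changes of count the cause was not tested.

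Replicate numbers were examined by correlating the deviations of arrays from their group means within a line. Of 56 same-numbered pairs 6 correlated above 0.1, over a range of -0.44 to 0.23. With 2 or 3 arrays in a group, such correlations cannot settle whether equal numbers mark paired arrays. With the replicate block, DHL4 at 24 h gave 41 calls (36 fell, 5 rose), the line difference at 24 h gave 29, DHL6 at 24 h gave 7 and DHL6 at 48 h gave 15. Calls not made under the block were SDHC in DHL4 at 24 h (adjusted p = 0.0617), ATP5F1D and COX6B1 in DHL6 at 24 h (0.0525 and 0.0664), NDUFB6 in DHL6 at 24 h against 2 h (0.0659) and NDUFC1 for the line difference at 6 h (0.0529), among the genes named. Of the values of single genes, 3347 kept direction and side of the threshold, 173 lost the call, 19 gained it and 9 turned sign. The 9 were SDHC without _x_at probe sets, at -0.03 in DHL4 and -0.10 in DHL6 at 24 h, and uncalled values of DHL6 at 24 h: ATP5MG at -0.05 (centred) and -0.02 to 0.03 (single arrays left out, lowest without replicate 1 of DHL6 DMSO), ATP5MC2 at -0.03 (mean of probe sets), UQCRC1 at 0.00 (centred) and -0.05 to 0.13 (single arrays left out, lowest without replicate 2 at 24 h), and NDUFV1 at -0.02 (centred) and -0.01 to 0.09 (single arrays left out, lowest without replicate 3 at 24 h). Over all genes, the percentage of calls that were lower was taken as deposited, after quantile normalization and after centring. At 24 h it was 56.9, 51.7 and 65.5 in DHL6 and 55.9, 51.7 and 63.2 in DHL4. In DHL6 it was 62, 52 and 67.9 at 6 h and 63.9, 52.2 and 79.1 at 48 h, and in DHL4 at 2 h 71.8, 54.2 and 74.5. Signal near the floor limits what can be seen in COX6A2, COX7A1 and PPARGC1A.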
